A study of Homo sapiens with 6 samples.

Results

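The genes described here encode 4 systems of guidance cues and their receptors: ephrins with EPH receptors, semaphorins with plexins and neuropilins, slits with ROBO receptors, and netrins with UNC5 receptors, together with the netrin-G genes. They were chosen by name from the 62700 gene IDs in each count table, as protein-coding genes of these families. The names gave 70 genes: 5 ephrin-A, 3 ephrin-B, 9 EPHA, 5 EPHB, 20 semaphorin, 9 plexin, 2 neuropilin, 3 slit, 4 ROBO, 4 netrin, 2 netrin-G and 4 UNC5 genes. Their RNA was counted in sequencing libraries of OVCAR8, an ovarian carcinoma cell line of human origin that is long established and is labelled wild type. All cells had been kept without serum overnight. The 3 Control libraries came from cells given PBS, and the 3 Leptin libraries from cells given leptin, a hormone of fat cells, at 100 ng/ml for 24 h. The study asked which transcripts change with leptin in relation to stem-like properties of these cells.

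Guidance cues were first studied in growing axons, where they attract or repel the growth cone by acting on the actin skeleton and on adhesion. Ephrins stay attached to the membrane and signal to EPH receptor tyrosine kinases on neighbouring cells, while slits and most netrins are secreted. Class 3 semaphorins are secreted and bind neuropilins, which pair with plexins to pass the signal on, and other semaphorins bind plexins directly. Epithelial and tumour cells use the same genes in adhesion, migration and the growth of vessels.

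Total counts per library lay between 15609425 and 18577775. Whether the replicates of a group were grown separately is not given in the sources used here, so a p-value reflects library-to-library spread that may be technical. In bulk RNA, fewer cells of a kind and less RNA per cell cannot be told apart. Leptin replicate 1 stood apart. Its position on principal component 1 (49.6% of the variance) was -2.15, between the controls (-31.0 to -23.6) and the other Leptin libraries (39.6 and 46.3). Transcripts of high GC content were higher with leptin across all genes. When tested genes were divided into 5 equal classes by GC content, 17.6% of the richest class passed the test as higher and 0.59% as lower. PAX8, a marker of the ovarian carcinoma lineage, stood at 364 CPM (counts relative to each scaled library total) in controls and with leptin, but MUC16 and MSLN had under 0.4 CPM in each group mean. The 10 ovarian carcinoma and epithelial markers summed to 3171 to 3456 CPM in controls and 3526 to 3931 CPM with leptin. Most of it came from KRT8 (2138 and 2321 CPM). KRT7 went from 332 to 547 CPM with a wide spread (SD 44.3 and 238) and did not pass the test, and KRT19 fell (102 to 38.7 CPM). WT1, EPCAM and CDH1 were low, at 2.39, 3.98 and 0.247 CPM in controls and 2.98, 5.48 and 0.731 CPM with leptin. The 8 immune markers summed to 2.06 to 2.52 CPM in controls and 2.61 to 4.84 CPM with leptin. Most of it came from CSF1R (2.12 and 3.64 CPM), whose groups did not overlap but which did not pass the test. PTPRC and CD3E had 0 counts in every library. The 8 endothelial markers summed to 3.37 to 5.40 CPM in controls and 2.21 to 4.32 CPM with leptin, most of it from KDR, with PECAM1, CDH5 and VWF under 0.2 CPM. The 9 fibroblast markers summed to 462 to 659 CPM in controls and 359 to 523 CPM with leptin, nearly all of it from COL1A1. The 8 markers of neurons and glia summed to 68.6 to 72.7 CPM in controls and 74.4 to 120 CPM with leptin, mostly MBP, which rose. The neuronal genes SNAP25 and STMN2 were at or near 0, but others of the list were present. SYT1 stood at 5.45 and 4.82 CPM, MAP2 at 8.09 and 7.64 CPM and GFAP at 2.6 and 3.55 CPM (Control and Leptin means), and none of these passed. The part of these markers, of GC content and of Leptin replicate 1 in the results on guidance genes was not tested.

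Promoter sequences are shown for the members whose test and reference entry allow a look at the start of the gene. They are RefSeq windows (GRCh38.p14) from 250 bases before to 50 after the RefSeq gene start. Windows were found for 59 of the 70 genes and for 8 of the 14 that passed the test. The RefSeq start can differ from the start of the gene as counted. The NRP2 window, for example, lies wholly inside the counted gene, which starts at 205681990. EFNB3, EPHA10, NTNG2, SEMA3A, SEMA6B and UNC5B are the called genes without an entry. NTNG1, SLIT2 and NRP2 are printed because they were the called genes with an entry and the smallest adjusted p, and all fell. Capitals mark GC boxes (GGGCGG on either strand, bound by SP1-type factors), of which NTNG1 holds 0, SLIT2 5 and NRP2 3, with 2 of the NRP2 boxes overlapping.
NTNG1, chr1:107139838-107140137, plus strand: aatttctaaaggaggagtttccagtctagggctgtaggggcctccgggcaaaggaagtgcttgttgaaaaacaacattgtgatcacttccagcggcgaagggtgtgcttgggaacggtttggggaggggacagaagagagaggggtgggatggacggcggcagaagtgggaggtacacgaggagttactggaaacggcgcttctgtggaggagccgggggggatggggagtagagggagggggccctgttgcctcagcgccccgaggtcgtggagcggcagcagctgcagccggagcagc
SLIT2, chr4:20251655-20251954, plus strand: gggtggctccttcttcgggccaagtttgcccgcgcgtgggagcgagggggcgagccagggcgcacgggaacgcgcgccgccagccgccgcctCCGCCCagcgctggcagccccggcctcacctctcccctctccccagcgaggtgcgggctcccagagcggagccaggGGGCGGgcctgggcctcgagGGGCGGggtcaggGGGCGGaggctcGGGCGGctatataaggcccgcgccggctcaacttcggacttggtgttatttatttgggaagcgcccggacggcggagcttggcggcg
NRP2, chr2:205682251-205682550, plus strand: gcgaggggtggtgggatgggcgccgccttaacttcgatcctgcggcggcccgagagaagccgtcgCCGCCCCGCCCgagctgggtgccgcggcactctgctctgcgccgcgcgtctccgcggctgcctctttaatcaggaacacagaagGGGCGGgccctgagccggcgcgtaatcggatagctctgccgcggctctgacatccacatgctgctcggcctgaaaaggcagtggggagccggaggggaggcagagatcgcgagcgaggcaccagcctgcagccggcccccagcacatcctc
The window of EPHA3, which rose, is printed because it was the one called gene of the 8 whose window holds the STAT palindrome TTCNNNGAA, here in capitals. The palindrome was also in the windows of EFNA3 and ROBO2, which did not pass, and of EPHA5 and SEMA3E, which were not tested. The leptin receptor can activate STAT3, but whether STAT3 acts on any of these genes was not tested.
EPHA3, chr3:89107371-89107670, plus strand: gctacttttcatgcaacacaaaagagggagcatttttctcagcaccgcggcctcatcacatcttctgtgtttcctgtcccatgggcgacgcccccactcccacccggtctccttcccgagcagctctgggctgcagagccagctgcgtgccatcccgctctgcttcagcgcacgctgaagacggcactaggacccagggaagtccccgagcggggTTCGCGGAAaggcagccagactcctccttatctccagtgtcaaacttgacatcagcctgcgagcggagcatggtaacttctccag

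Among the 59 member windows, 76.3% held at least 1 GC box, against 45.0% of all 35116 windows and 65.4% of those of tested genes. The STAT palindrome was in 8.47% of member windows, 7.66% of all windows and 6.19% of those of tested genes. The C/EBP-ATF element TGATGNAAT was in 0 member windows, 0.991% of all and 0.519% of those of tested genes. The CRE TGACGTCA was in 3.39, 1.85 and 2.78%, and the E-box CACGTG in 6.78, 7.26 and 9.09%, in the same order. A match describes letters in these windows and is not a measured site.

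Levels between genes are given as TPM, which are counts divided by exon length and scaled to the same total in each library. On this scale the receptor families summed to 1177 TPM in controls and the ligand families to 816 TPM. The semaphorin receptor gene PLXNB2 was the most abundant, at 392 ± 22.0 TPM in controls (SD, n = 3), ahead of the receptor kinase gene EPHA2 at 311 ± 13.6 and the semaphorin gene SEMA4B at 180 ± 9.10 TPM. These 3 genes held 19.6, 15.6 and 9.03% of the TPM summed over the 70 genes. SEMA3C (98.0 ± 7.07 TPM), PLXNA1 (87.4 ± 2.83), PLXND1 (85.1 ± 5.61) and EFNA1 (80.1 ± 7.57) followed, and from PLXNA1 to EFNA1 neighbours in this order lay within 1 SD of each other. In all, 28 genes stood at 10 TPM or more in controls, 20 between 1 and 10 TPM and 22 under 1 TPM. EPHA8, SEMA3E and SEMA5B had 0 counts in every library. A count of 0 allows up to 3 counts, or 0.162 to 0.192 CPM, for counting error only.

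**Figure D1:**
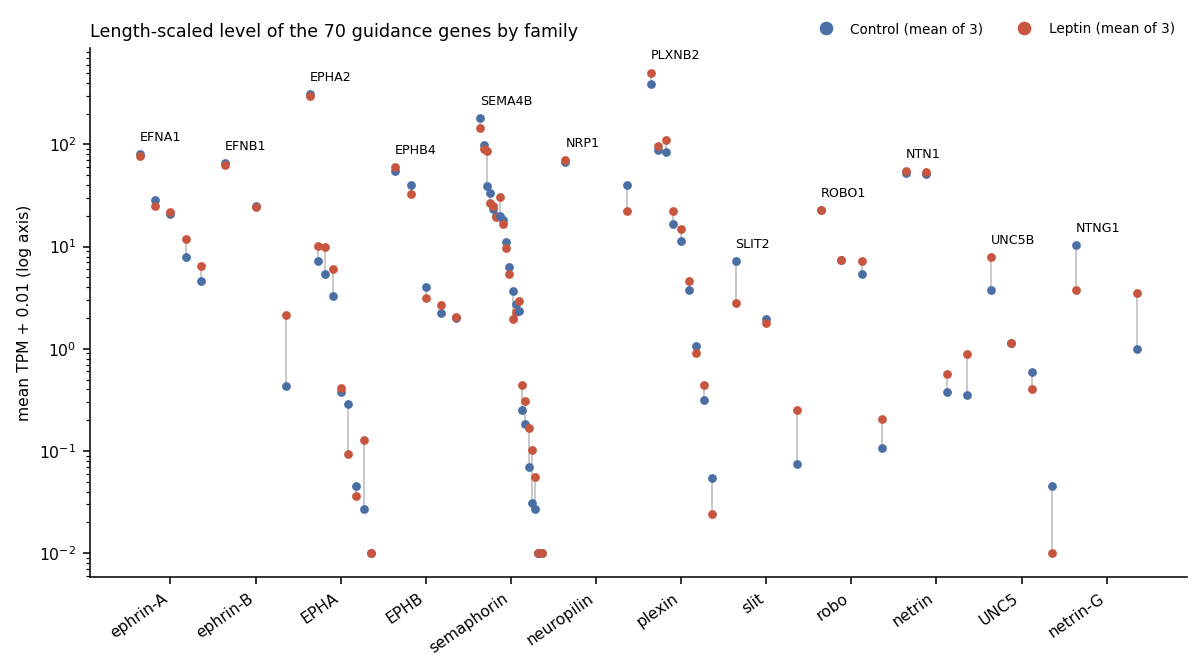
Mean TPM plus 0.01 (log axis) of each of the 70 genes, by family, in Control (blue) and Leptin (red) libraries, 3 each; the highest gene of each family is named. PLXNB2, EPHA2 and SEMA4B lead in both groups, and NTNG1 goes from 10.3 to 3.77 TPM and SLIT2 from 7.21 to 2.80 TPM.

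Summed TPM of the 70 genes was 1910 to 2080 in controls and 2020 to 2330 with leptin, so the groups overlapped. The plexins made up the largest family sum, at 569, 631 and 592 TPM in Control replicates 1 to 3 and 642, 909 and 710 TPM in Leptin replicates 1 to 3. Slit genes summed to 9.18, 9.76 and 8.69 TPM in controls and 4.95, 5.85 and 3.67 TPM with leptin. The groups did not overlap for either family, as was so for 32.2% of all tested genes taken singly. These sums lean on single genes. PLXNB2 went from 392 to 505 TPM, and SLIT2 from 7.21 to 2.80 TPM while SLIT3 stood at 1.93 and 1.79 TPM. Netrin-G sums (10.6 to 11.7 TPM against 6.01 to 7.94 TPM with leptin) and UNC5 sums (4.45 to 6.72 against 6.88 to 11.3 TPM) also separated. The lower netrin-G sum came from NTNG1 (10.3 to 3.77 TPM), while NTNG2 rose (0.979 to 3.48 TPM). Neuropilin sums did so narrowly (102 to 117 against 79.4 to 101 TPM). Sums of the other families overlapped, ephrin-A among them (131 to 154 TPM against 106 to 175 TPM).

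Leptin was compared with Control for each gene by edgeR's quasi-likelihood test over 15685 genes with enough counts, with adjustment over all of them and a threshold of 0.05. Of the 70 genes 55 were tested, and the other 15 never exceeded 14 counts in a library. Among those tested, 10 rose and 4 fell. In the same fit 9.81% of all tested genes passed, 5.71% as higher and 4.09% as lower. Among protein-coding tested genes, to which the guidance genes belong, 11.2% passed (1451 of 12926). The shares among the 55 were 18.2% higher and 7.27% lower. Of the 55, 6 passed with a change of at least 2-fold, against 377 of all 15685 tested genes (2.40%). Groups did not overlap for 19 of the 55 (34.5%), near the 32.2% of all tested genes. Of these 15 were higher (27.3%, against 16.0%) and 4 lower (7.27%, against 16.2%). The median log2 fold change was 0.10 over the 55 and 0.01 over all tested genes.

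GC content ran alongside these counts. Of the 55 tested genes, 30 (54.5%) lay in the richest GC class, and 7 of these rose, or 23.3%, against 17.6% of all tested genes of that class. With each library's GC trend removed, 5 of the 55 were higher and 3 lower, and all 8 were among the 14. Of all tested genes 5.51% passed there, 423 as higher and 442 as lower. Genes that kept their calls were NTNG1, NTNG2, SLIT2, NRP2, EFNB3, UNC5B, EPHA3 and EPHA4. The remaining 6, EPHA10, PLXNA3, PLXNB1, SEMA3A, SEMA3B and SEMA6B, had adjusted p between 0.0526 and 0.551 there.

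**Figure D2:**
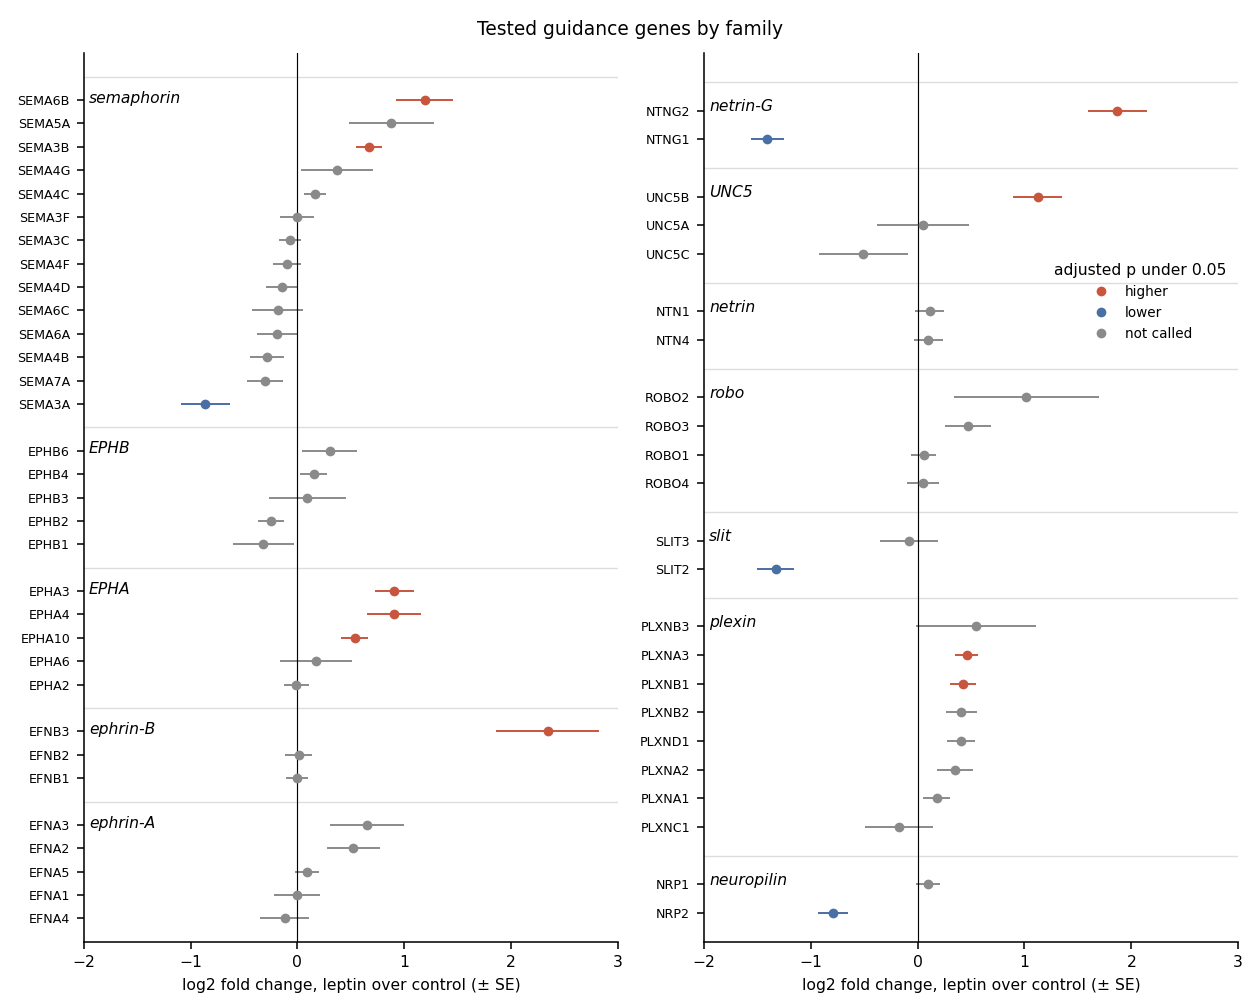
Log2 fold change with its standard error (leptin over control, 3 libraries each) of the 55 tested genes, by family; colour shows whether the adjusted p was under 0.05. Within the netrin-G pair the called genes lie on opposite sides of 0, and 7 of 8 plexins lie to the right of it.

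The netrin-G genes gave the clearest result. Netrin-Gs are anchored to the membrane by a lipid and bind partner proteins of synapses rather than the classical netrin receptors. NTNG1 (ENSG00000162631.20, chr1:107140007-107484923, hg38, plus strand) stood at 27.1, 27.8 and 24.0 CPM in Control replicates 1 to 3 and at 11.4, 10.6 and 7.90 CPM in Leptin replicates 1 to 3. Each Leptin library was below every control. Its log2 fold change was -1.40 ± 0.16 (SE; adjusted p by edgeR = 0.00162). NTNG2 (ENSG00000196358.12, chr9:132162058-132244526, plus strand) stood at 1.05, 1.12 and 1.44 CPM in controls and 4.27, 4.81 and 4.16 CPM with leptin. All Leptin libraries were above the controls, and their counts of 70 to 74 compare with 18 to 24. The log2 fold change of NTNG2 was 1.87 ± 0.27 (adjusted p by edgeR = 0.00431).

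Expressed as TPM within 1 library, NTNG1 stood at 12.3, 11.9 and 8 times the level of NTNG2 in controls. With leptin the ratios were 1.28, 1.05 and 0.912, so replicate 3 had slightly more NTNG2 than NTNG1. Both genes passed in all 6 fits that left out 1 library, with highest adjusted p of 0.0240 for NTNG1 and 0.0464 for NTNG2, and with the GC trend removed (log2 fold changes -1.28 and 1.57).

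**Figure D3:**
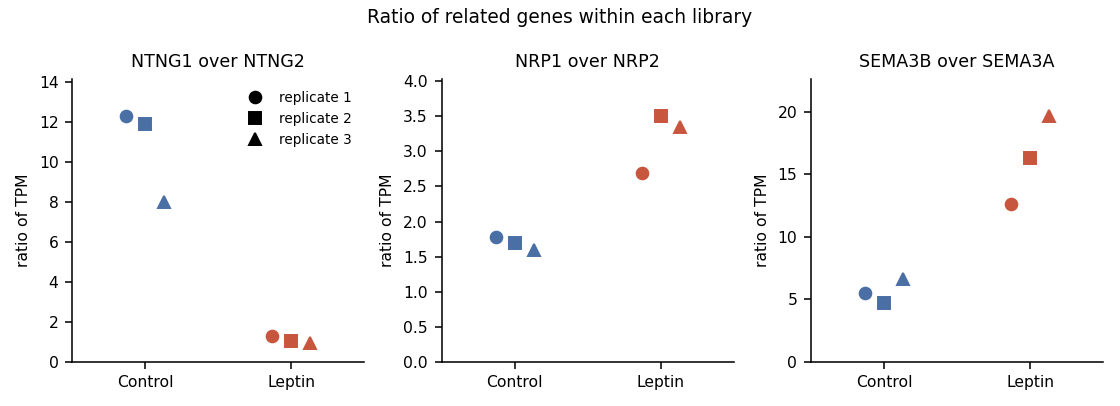
Ratio of TPM between related genes within each library (symbols, replicates 1 to 3). NTNG1 over NTNG2 falls from between 8 and 12.3 to between 0.912 and 1.28, while NRP1 over NRP2 and SEMA3B over SEMA3A are higher in every Leptin library than in any control. The netrin-G genes, and SEMA3B and SEMA3A, each separated the groups in opposite directions, so their ratios had to separate and add no evidence. With the GC trend removed neither SEMA3B nor SEMA3A passed the test.

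Among slits, which are secreted repellents, SLIT2 fell and its receptors did not pass the test. SLIT2 (ENSG00000145147.20, chr4:20251905-20620561, plus strand) stood at 20.7, 20.6 and 17.3 CPM in controls and 6.98, 9.69 and 6.71 CPM with leptin. The groups were well apart, and the log2 fold change was -1.33 ± 0.18 (adjusted p by edgeR = 0.00334). It passed in all 6 leave-outs (adjusted p up to 0.0442). SLIT3 overlapped between groups, at 5.48, 7.27 and 7.44 CPM in controls and 8.24, 7.08 and 3.80 CPM with leptin. SLIT1 had 0 to 14 counts per library and was not tested, though without Leptin replicate 1 it entered the test and passed, in a fit where 29.6% of all tested genes did so.

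Of the 4 ROBO genes, which encode the slit receptors, 0 passed by edgeR, and 0 by DESeq2 or limma-voom. At an unadjusted p under 0.05 there was 1, ROBO3. ROBO1, the most abundant, stood at 59.7, 66.5 and 57.0 CPM in controls and 64.6, 69.2 and 56.8 CPM with leptin (log2 fold change 0.06 ± 0.12). ROBO3 stood at 8.34 to 9.96 CPM in controls and at 8.65, 13.8 and 15.6 CPM with leptin (log2 fold change 0.47 ± 0.21, adjusted p by edgeR = 0.175). It passed when Leptin replicate 1 was left out, as did 29.6% of all tested genes. ROBO4, known as a receptor of endothelial cells, was present at 11.2 to 12.8 CPM in controls and 11.3 to 13.6 CPM with leptin, in cells whose endothelial markers PECAM1, CDH5 and VWF were under 0.2 CPM and KDR averaged 3.12 (Control) and 1.90 CPM (Leptin). ROBO3 and ROBO4 lie 2.22 kb apart on chromosome 11, and 18.0% of the exon bases of ROBO4 are shared with other annotated genes.

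Secreted semaphorins moved in both directions. SEMA3A, the classical repellent that acts through NRP1, stood at 7.80, 10.4 and 6.54 CPM in controls and fell to 5.48, 4.08 and 4.04 CPM (log2 fold change -0.86 ± 0.23, adjusted p by edgeR = 0.0408). SEMA3B, studied as a tumour suppressor gene on chromosome 3, rose from 26.7, 30.6 and 27.0 CPM to 43.1, 41.3 and 49.7 CPM (log2 fold change 0.67 ± 0.12, adjusted p by edgeR = 0.00952). Neither gene's groups overlapped. The ratio of SEMA3B to SEMA3A in TPM was 4.70 to 6.61 in controls and 12.6 to 19.7 with leptin. SEMA3B has a GC content of 64.8%, in the richest GC class, and SEMA3A 36.7%, in the poorest. With the GC trend removed their log2 fold changes were 0.27 and -0.72, and neither passed (adjusted p by edgeR = 0.185 and 0.0973). SEMA3F lies 78.5 kb from SEMA3B and did not pass (adjusted p by edgeR = 0.999), at 21.3 to 25.5 CPM in controls and 18.2 to 27.0 CPM with leptin. SEMA3C, the most abundant of class 3, stood at 133 to 155 CPM in controls and 136 to 141 CPM with leptin. SEMA3D, 503 kb from SEMA3A, had at most 12 counts per library.

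Membrane semaphorins were led by SEMA6B, whose product binds A-type plexins. It stood at 42.8, 54.9 and 36.9 CPM in controls and 61.9, 136 and 110 CPM with leptin (log2 fold change 1.19 ± 0.26, adjusted p by edgeR = 0.0261). Leptin replicate 1 was only a little above the highest control, while replicates 2 and 3 were far above it. SEMA4B, the semaphorin of highest level, was 291, 316 and 315 CPM in controls and 327, 214 and 218 CPM with leptin. Its Leptin replicate 1 lay above every control and the other Leptin libraries below every control, so that its log2 fold change of -0.28 ± 0.16 averaged opposite shifts (adjusted p by edgeR = 0.280). Without Leptin replicate 1 it was -0.52 (adjusted p by edgeR = 0.000613), in a fit where 29.6% of all tested genes passed. SEMA4C lay at 34.7 to 37.1 CPM in controls and 38.1 to 41.6 CPM with leptin, without overlap, and did not pass (log2 fold change 0.16 ± 0.11, adjusted p by edgeR = 0.345). SEMA5A likewise separated the groups at 0.580 to 0.870 CPM against 1.10 to 1.54 CPM without passing (adjusted p by edgeR = 0.179). Of 20 semaphorin genes 14 were tested, with 2 higher, 1 lower and 11 that did not pass.

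Of the 2 neuropilins 1 fell. NRP2, a co-receptor for class 3 semaphorins and for VEGF-C, stood at 125, 148 and 134 CPM in controls and fell to 94.8, 73.4 and 66.6 CPM with leptin, without overlap (log2 fold change -0.79 ± 0.14, adjusted p by edgeR = 0.00926). NRP1, which binds SEMA3A and VEGF-A, stood at 185, 208 and 176 CPM in controls and 211, 214 and 185 CPM with leptin (log2 fold change 0.10 ± 0.11, adjusted p by edgeR = 0.615). In TPM, NRP1 exceeded NRP2 by 1.59 to 1.78 times in controls and 2.69 to 3.51 times with leptin.

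Plexins are the receptors that pass semaphorin signals to small GTPases. Of 9 genes 8 were tested, 2 rose, and 7 of the 8 had a positive log2 fold change (median 0.41). PLXNA3 rose from 45.5, 49.1 and 48.8 CPM to 65.2, 71.4 and 60.9 CPM (log2 fold change 0.46 ± 0.11, adjusted p by edgeR = 0.0242). PLXNB1, the receptor for SEMA4D, rose from 25.3, 29.4 and 26.9 CPM to 34.0, 40.7 and 35.2 CPM (log2 fold change 0.43 ± 0.12, adjusted p by edgeR = 0.0486). PLXNB2, the member of highest level, was 667, 742 and 679 CPM in controls and 759, 1107 and 911 CPM with leptin. PLXND1, a plexin of blood vessels, was 188, 214 and 194 CPM and 227, 306 and 259 CPM. These last 2 genes separated the groups but did not pass (adjusted p by edgeR = 0.0941 and 0.0680). Without Leptin replicate 1 both passed (adjusted p = 0.00135 and 0.00148), as did 29.6% of all tested genes. The tested plexins had a median GC content of 62.0%, against 48.4% over all tested genes. With the GC trend removed the log2 fold changes of PLXNA3, PLXNB1, PLXNB2 and PLXND1 were 0.33, 0.13, 0.07 and 0.05, and none of the 4 passed.

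**Figure D4:**
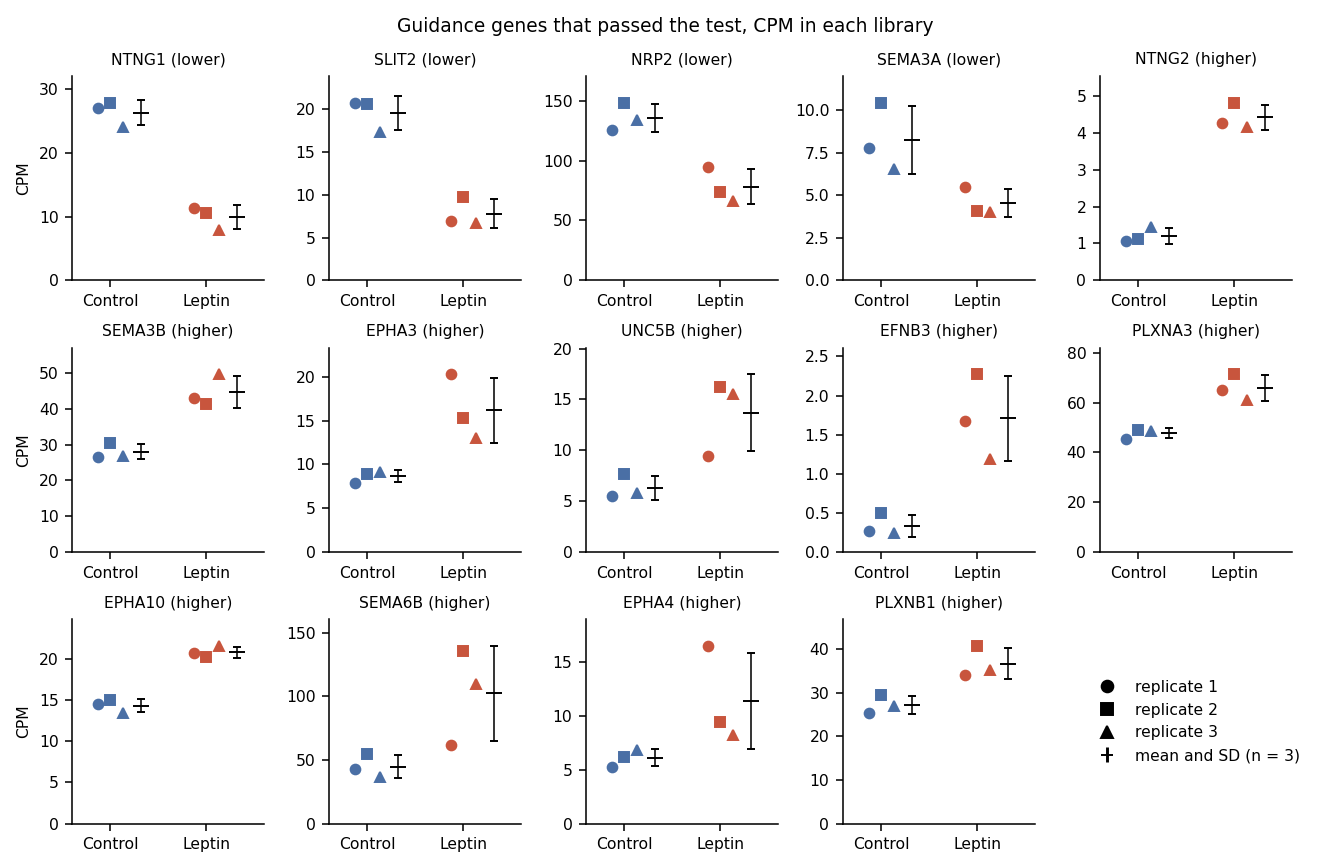
CPM in each library (symbols, replicates 1 to 3) of the 14 genes that passed the test, with mean and SD of 3 libraries; each axis starts at 0. In every panel the Leptin libraries lie wholly above or wholly below the controls, and for UNC5B and SEMA6B replicate 1 is the lowest of the Leptin libraries, while for EPHA3 and EPHA4 it is the highest.

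Ephrins, the membrane-bound ligands, changed in 1 of 8 genes. EFNB3 had 5, 8 and 4 counts in controls and 29, 34 and 20 counts with leptin, equal to 0.264, 0.497 and 0.240 CPM against 1.67, 2.27 and 1.19 CPM. The groups did not overlap, the log2 fold change was 2.34 ± 0.48 (adjusted p by edgeR = 0.0160), and the level stayed low, at 2.12 TPM with leptin. The other B ephrins overlapped between groups, with EFNB1 at a mean of 52.8 CPM in controls and 52.6 CPM with leptin, and EFNB2 at 27.4 to 33.2 and 27.2 to 32.7 CPM. EFNB2 shares 36.4% of its exon bases with another annotated gene on the opposite strand. Of the 5 ephrin-A genes 0 passed by edgeR, DESeq2 or limma-voom, and 0 had an unadjusted p under 0.05 by edgeR. EFNA1, the main ligand of EPHA2, stood at 40.4, 47.2 and 39.6 CPM in controls and 56.6, 27.2 and 43.2 CPM with leptin, a wide spread on both sides of the controls. EFNA2 separated the groups at 2.48 to 2.98 CPM against 3.34 to 4.48 CPM but did not pass (adjusted p by edgeR = 0.194), and with the GC trend removed its sign turned (log2 fold change -0.11). EFNA1 lies 40.3 kb from EFNA3 and 58.3 kb from EFNA4 on chromosome 1, and 43.9% of the exon bases of EFNA3 are shared with a readthrough gene of EFNA4 and EFNA3, so EFNA3 counts are uncertain.

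EPH receptors of the A class rose in 3 of 5 tested genes. EPHA3 stood at 7.91, 8.88 and 9.18 CPM in controls and 20.3, 15.3 and 13.0 CPM with leptin (log2 fold change 0.91 ± 0.18, adjusted p by edgeR = 0.0151). EPHA4, which binds both ephrin classes, stood at 5.27, 6.21 and 6.84 CPM and 16.5, 9.42 and 8.25 CPM (log2 fold change 0.90 ± 0.26, adjusted p by edgeR = 0.0486). In both genes Leptin replicate 1 was the highest library. EPHA10, which is thought to lack kinase activity, rose from 14.6, 15.03 and 13.4 CPM to 20.7, 20.3 and 21.6 CPM (log2 fold change 0.54 ± 0.13, adjusted p by edgeR = 0.0252). EPHA3 and EPHA4 have a GC content of 40.6 and 44.8%, in the 2 poorest of the 5 GC classes, where 0.754 and 1.44% of all tested genes rose. EPHA10 has 63.2%, and with the GC trend removed its log2 fold change was 0.20 (adjusted p by edgeR = 0.385), against 1.03 for EPHA3 and 0.99 for EPHA4.

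EPHA2, by far the most abundant EPH receptor, overlapped between the groups, at 305, 312 and 327 CPM in controls and 272, 331 and 335 CPM with leptin (log2 fold change -0.01 ± 0.12, adjusted p by edgeR = 0.966). All 5 EPHB genes were tested and 0 passed by edgeR, DESeq2 or limma-voom, with 0 at an unadjusted p under 0.05 by edgeR. EPHB4, the partner of EFNB2, stood at 81.4 to 91.0 CPM in controls and 80.2 to 110 CPM with leptin. EPHB2 stood at 111 to 133 and 92.9 to 118 CPM (log2 fold change -0.25 ± 0.12, adjusted p by edgeR = 0.212). Without Leptin replicate 1 it passed, as did 29.6% of all tested genes.

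In the netrin system neither tested ligand passed and 1 receptor rose. NTN1 stood at 83.5, 81.8 and 81.4 CPM in controls and 70.4, 99.3 and 97.4 CPM with leptin, and NTN4, a netrin of basement membranes, at 54.2, 54.1 and 56.0 and 46.6, 66.3 and 63.1 CPM. In both genes Leptin replicate 1 lay below every control and the other 2 Leptin libraries above every control. UNC5B, a netrin receptor that is also linked to cell death when no ligand is bound, rose from 5.48, 7.64 and 5.76 CPM to 9.40, 16.2 and 15.5 CPM (log2 fold change 1.12 ± 0.23, adjusted p by edgeR = 0.0156). UNC5A and UNC5C stayed under 2 CPM and did not pass (adjusted p by edgeR = 0.955 and 0.470). UNC5D was not tested, with at most 3 counts in a library. DCC, the attractive netrin receptor, had a mean of 0.0800 CPM in controls and 0.0396 CPM with leptin, while its relative NEO1 stood at 62.1 and 74.9 CPM (adjusted p by edgeR = 0.250).

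A shift of Leptin replicate 1 opposite to that of replicates 2 and 3, each beyond all controls, occurred in 7 of the 55 tested genes: EPHA2, EPHB4, NTN1, NTN4, SEMA4B, SEMA4D and SEMA6C. That is 12.7% of them, against 8.96% of all tested genes. For the 10 genes that rose, the median difference from the control mean was 0.60, 0.72 and 0.71 in Leptin replicates 1 to 3 on the log2 scale, and for the 4 that fell it was -0.88, -0.98 and -1.27. These genes were chosen by a test that favours agreement among the Leptin libraries. Replicate 1 stood apart in some of them, at 0.48 against 1.61 and 1.30 for SEMA6B and 1.42 against 0.62 and 0.43 for EPHA4.

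**Figure D5:**
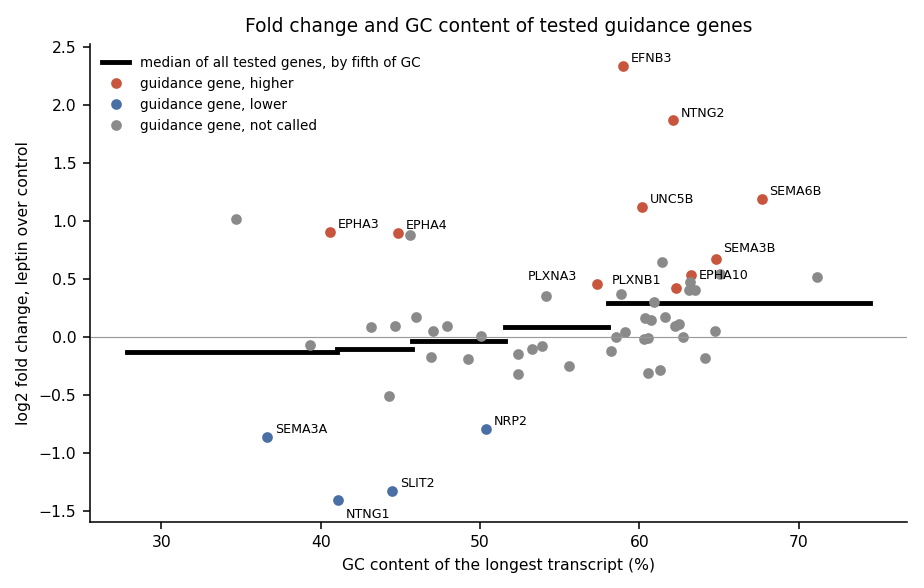
Log2 fold change (leptin over control) against the GC content of the longest transcript for the 55 tested genes, with the median of all tested genes in each of 5 equal classes of GC content as black bars. The bars climb from -0.13 to 0.30, EPHA3 and EPHA4 rose at low GC content, and no called gene in the 2 richest classes fell.

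The number of calls depended on single libraries. Without Control replicates 1, 2 and 3 the higher and lower guidance genes numbered 1 and 2, 5 and 2, and 1 and 2. Without Leptin replicates 1, 2 and 3 they numbered 14 and 7, 4 and 3, and 3 and 2. Of all tested genes 0.711, 2.25 and 1.05% passed without each control in turn, and 29.6, 4.84 and 1.66% without each Leptin library. NTNG1, NTNG2 and SLIT2 passed in each of these fits. NRP2 lost its call without any 1 control or Leptin replicate 3 (adjusted p by edgeR = 0.0505 to 0.0597), and EPHA10 in the same fits (0.0879 to 0.140). EPHA3 lost it without any 1 control (0.0689 to 0.106), and EPHA4 without any 1 library (0.0531 to 0.209). PLXNA3 (0.0533 to 0.153), PLXNB1 (0.110 to 0.227) and SEMA3A (0.0885 to 0.169) lost theirs without any 1 control and without Leptin replicate 2 or 3. SEMA6B (0.0821 to 0.113) and UNC5B (0.0502 to 0.107) lost theirs without Control replicate 1 or 3 or Leptin replicate 2 or 3. SEMA3B did so without Control replicate 1 or 3 or Leptin replicate 3 (0.0512 to 0.0826), and EFNB3 without Control replicate 1 or 3 or Leptin replicate 2 (0.0561 to 0.108). EPHA4 also missed the threshold with limma-voom (adjusted p = 0.0721), upper-quartile scaling (0.0555), total counts (0.0612) and the filter at 1 CPM (0.0513). PLXNB1 missed it with limma-voom (0.0542) and total counts (0.0608), and SEMA3A with limma-voom (0.0521).

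Other genes of guidance pathways were taken from 2 lists. Of 19 other guidance ligands and receptors 10 were tested, 1 rose and 0 fell (9.81% of all tested genes passed). That gene was L1CAM, an adhesion molecule that can associate with neuropilins, which went from 292 ± 17.1 to 432 ± 87.3 CPM (log2 fold change 0.57 ± 0.15, adjusted p by edgeR = 0.0370). Of 39 intracellular guidance mediators 37 were tested, 4 rose and 1 fell. In the same fit 9.81% of all tested genes and 11.2% of protein-coding tested genes passed in either direction. FYN, a kinase used by EPH and plexin receptors, went from 34.2 to 55.9 CPM (log2 fold change 0.71 ± 0.12, adjusted p by edgeR = 0.00712), and KALRN from 17.2 to 27.3 CPM (0.67 ± 0.12, adjusted p = 0.00974). RHOD, a small GTPase, rose from 46.8 ± 5.71 to 85.2 ± 28.2 CPM (log2 fold change 0.86 ± 0.22, adjusted p by edgeR = 0.0337). Its Leptin replicate 1 (54.1 CPM) was only a little above the highest control (52.0 CPM). RHOD missed the threshold with limma-voom (adjusted p = 0.0561). Among collapsin response mediators, which act below SEMA3A in axons, DPYSL4 rose from 19.7 to 33.4 CPM and DPYSL3 fell from 348 to 227 CPM (log2 fold changes 0.76 ± 0.14 and -0.62 ± 0.14). FYN and KALRN lost their calls without Control replicate 1 or 3 (adjusted p by edgeR = 0.0588 to 0.0865) and DPYSL4 without those or Leptin replicate 3 (0.0552 to 0.0849). DPYSL3 (0.0511 to 0.113), RHOD (0.0900 to 0.153) and L1CAM (0.0806 to 0.190) lost theirs without any 1 control and without Leptin replicate 2 or 3. With the GC trend removed, FYN, KALRN and DPYSL3 passed and DPYSL4, RHOD and L1CAM did not (adjusted p = 0.0527, 0.129 and 0.161).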

How the data were processed

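Each library has 1 table of raw counts per gene. According to the deposited headers these counts came from featureCounts 2.0.1 run on read pairs and GENCODE release 44 exons, unstranded, and neither multi-mapping nor multi-gene reads were requested. Pairs over exons of 2 overlapping genes were therefore left out. Alignment with HISAT2 2.0.5 to hg38 is named by the submitters' processing notes, which also list DESeq2 and, unlike the headers, featureCounts 1.5.0-p3. Symbols matched all 62700 IDs, and gene types came from GENCODE release 29 (58207 IDs) or RefSeq (393). Columns of per-sample values left unmapped numbered 0.

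Counts as deposited were tested in R 4.3.3 with edgeR 4.0.16 (filterByExpr with a minimum count of 10 and total of 15, TMM scaling, robust quasi-likelihood fit on group, Benjamini-Hochberg adjustment over 15685 genes, threshold 0.05). CPM used TMM-scaled totals, and TPM used the tables' exon lengths, which join all isoforms. Standard errors are those implied by fold change and F statistic. Same-group libraries differed beyond sampling noise, and each was counted as 1 sample. Such a difference cannot show whether they came from separate cultures. Chi-square per gene ran from 5.24 to 5.61 between Control libraries and from 19.2 to 45.4 between Leptin libraries. Leptin libraries were thus more scattered, with a median SD per gene of 0.238 (log2 scale) against 0.122 among Control libraries. For guidance genes these medians were 0.272 and 0.128. What this unequal spread does to standard errors, p-values and the fits without 1 library was not tested. The script was checked on simulated data, which gives no error rate for these libraries. The GC trend was a lowess (span 0.3) of each library's log2 level on GC content, used as offsets. Alternatives were DESeq2 1.42.0, limma-voom (limma 3.58.1), other scalings, filters and thresholds, a block on replicate number and omission of each library in turn. Figures used matplotlib 3.10.9.

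Genes were named as those past the threshold, those with non-overlapping groups and a mean of at least 1 CPM, and the highest TPM of each family, with up to 8 called genes per pathway list. Members, lists and alternatives were chosen with earlier results of these data known.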

Additional observations from a re-analysis of the deposited data

How the results depend on the processing

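The number of guidance genes that passed (10 higher, 4 lower) kept within 1.5 times under DESeq2, limma-voom, the 3 other scalings and both other filters, where all genes changed stayed within 1.5 times of 1538 except for 2437 with no filter on low counts. At an adjusted p under 0.01 there were 2 higher guidance genes and 274 genes in all. With the GC trend removed 5 were higher and 865 genes changed (423 higher, 442 lower), and the cause was not tested. In fits without 1 library, higher guidance genes ranged from 1 to 14, lower ones from 2 to 7 and all genes changed from 115 to 4761; fewer samples alone lower the power. Same-numbered Control and Leptin libraries did not deviate together (correlations of -0.05, 0.01 and -0.11). These values cannot show whether such libraries were prepared together, which is not given in the sources used here. The replicate block gave 12 guidance genes, without EPHA4 (adjusted p = 0.0637) and PLXNB1 (0.0621), and 1303 genes in all, and the replicate block with the GC trend removed 6 higher guidance genes and 935 genes in all.

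Signs turned only for genes that had not passed. With the GC trend removed, without and with the replicate block, log2 fold changes became -0.110 and -0.115 for EFNA2, -0.0704 and -0.0711 for SEMA4C, -0.0997 and -0.106 for EPHB4 and -0.208 and -0.214 for NTN1. For EFNA1 it was 9e-04 with RLE scaling. Over the fits without 1 library the values ran from -0.273 to 0.233 for EFNA1, from -0.0691 to 0.0711 for EPHA2, from -0.043 to 0.0233 for EFNB1 and from -0.0096 to 0.127 for ROBO1. The cause was not tested. The 15 untested genes had at most 14 counts in a library and did not pass the filter on low counts; without it, the 12 of them that had any count were tested and 0 passed.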
